A study of Mus musculus with 6 samples.

Results

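The interleukin and interleukin receptor genes were examined in mouse livers with and without Cyr61, as all gene symbols in the count tables that begin with Il and a digit. The rule took 83 of 24411 gene symbols. They were split into 36 ligands, 38 receptor chains, 7 antagonists and decoys, and 2 other products, Il1bos, an antisense RNA, and Il4i1, an amino acid oxidase. The bulk RNA sequencing libraries came from livers of male Cyr61fl/fl mice, 24 weeks old, after 12 weeks of a NASH diet, a feeding regimen that produces fatty liver with inflammation and fibrosis. The labels call 3 libraries Control and 3 Cyr61 KO; both groups carry the floxed allele, and the labels used here do not name the deleting agent or the cells it acts in. Nothing in the labels ties each library to its own mouse, and a p-value below covers only library-to-library spread, which may be technical.

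Interleukins are secreted proteins through which immune, epithelial and stromal cells signal to each other. Most receptors pair a chain that binds 1 ligand with a chain shared by several, and they signal through JAK kinases and STAT factors; receptors of the IL-1 and IL-17 families signal instead through adaptor proteins to NF-kB. Antagonists restrain them by occupying the receptor, as Il1rn does for IL-1, or by binding the ligand, as Il18bp does for IL-18 and the decoy receptors do. In liver, hepatocytes are a main target of IL-6, IL-1 and IL-22, while the chains of the common gamma family are known from lymphocytes.

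The regions upstream of the genes show what lies next to members that differ in direction here. Of the 40 members tested below, 30 had an entry in RefSeq's promoter table, which holds 300 bases around each start site, mostly upstream, on GRCm38.p6. The promoters of Il22ra1, the receptor with the largest positive change, and of Il18bp and Il1rn, the antagonists with negative changes, are shown 5′ to 3′, with capitals marking every match on either strand to GGG, any 5 bases and CC (a loose NF-kB pattern), TGANTCA (AP-1) or TTCNNNGAA (STAT). Il22ra1 lies at chr4:135727909-135728208 on the plus strand, Il18bp at chr7:102018183-102018482 on the minus strand, and Il1rn, at the most upstream of its 3 listed start sites, at chr2:24336610-24336909 on the plus strand.
Il22ra1: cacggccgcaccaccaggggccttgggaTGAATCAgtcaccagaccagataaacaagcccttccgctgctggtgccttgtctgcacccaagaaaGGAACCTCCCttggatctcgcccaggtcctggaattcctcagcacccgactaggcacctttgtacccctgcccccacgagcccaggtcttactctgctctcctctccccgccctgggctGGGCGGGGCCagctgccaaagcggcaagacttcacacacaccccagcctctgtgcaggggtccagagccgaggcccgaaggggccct
Il18bp: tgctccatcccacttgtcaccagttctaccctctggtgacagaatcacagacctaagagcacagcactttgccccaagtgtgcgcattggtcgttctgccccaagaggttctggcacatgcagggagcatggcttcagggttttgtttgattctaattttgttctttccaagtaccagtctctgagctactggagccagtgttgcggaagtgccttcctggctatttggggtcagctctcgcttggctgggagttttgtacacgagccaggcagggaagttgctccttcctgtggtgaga
Il1rn: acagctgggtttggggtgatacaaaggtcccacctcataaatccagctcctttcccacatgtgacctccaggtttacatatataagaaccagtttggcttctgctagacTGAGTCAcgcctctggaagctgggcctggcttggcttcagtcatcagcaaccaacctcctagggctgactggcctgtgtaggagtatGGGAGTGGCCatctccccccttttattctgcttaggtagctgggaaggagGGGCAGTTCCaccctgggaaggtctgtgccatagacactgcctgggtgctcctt
The Il22ra1 and Il1rn windows each held 2 matches to the NF-kB pattern and 1 to the AP-1 pattern, and the Il18bp window held none of the 3 patterns. The NF-kB pattern was in 55.0% of the members' 40 windows and in 50.8% of all 32851 windows. The AP-1 pattern was in 7 member windows, 17.5%, against 7.81% of all windows, and the STAT pattern in 3, against 8.30%. These matches describe letters and not binding.

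The gene counts ran from 21032878 to 40377742 per library, counted on the strand that the directional kit reads. In Control replicate 2 only 50.9% of reads fell in genes, where the others had 82.8% to 87.6%. The 12 pancreas and gut epithelium markers summed to 1201 CPM in that library, to 51.8 and 118.6 CPM in the other controls and to 8.30 to 17.8 CPM in the knockouts. Of the 12, 8 were below 1 CPM in every library: Prss1, Prss2, Cpa1, Cpb1, Pnlip, Amy2a5, Muc2 and Cdx2. Prss1 and Amy2a5 were at 0 throughout. The sum thus rests on Cela1, Vil1, Tff3 and Dmbt1, and does not show a pancreas or gut origin. Dendritic cell markers (627 CPM against 249 and 193 CPM) and B and plasma cell markers (63.2 CPM against 13.6 and 18.3 CPM) were also higher there than in the other controls. In the knockouts they summed to 34.4 to 69.9 CPM and to 4.99 to 5.83 CPM, below every control. Of the dendritic cell markers tested, 7 of 8 had negative values, and of the B and plasma cell markers 6 of 6. edgeR called 1 lower in each list. Cyr61 itself was at 15.6, 32.4 and 27.8 CPM (counts scaled to library size with edgeR's TMM factors) in the controls and at 3.77, 2.66 and 3.14 CPM in the knockouts, so the labels hold in every library. The hepatocyte markers were present throughout: the 10 summed to 44896 CPM in Control replicate 2, 98991 and 103451 CPM in the other controls and 110434 to 132718 CPM in the knockouts. The 11 markers of monocyte-derived macrophages, of which 5 were called lower, summed to 718 to 2057 CPM in the controls and 156 to 435 CPM in the knockouts. The 7 Kupffer cell markers, of which 0 were called by edgeR (1 at an unadjusted p under 0.05 and 1 higher by DESeq2), summed to 569 to 905 CPM and 535 to 977 CPM. The 14 markers of T, NK and innate lymphoid cells summed to 39.0 to 110.3 CPM and 62.7 to 67.6 CPM. Of the 12 tested, 11 had negative values, at a median of -2.78; edgeR called 1 lower and 1 higher, and DESeq2 called 7 lower and 1 higher. None of these 14 lymphoid markers was at 0 in all libraries. In bulk tissue, fewer cells of a type and less RNA per cell cannot be told apart.

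Only part of the family was measurable. Of the 83 members, 40 passed the low-count filter (11 ligands, 26 receptors and 3 antagonists), 29 had some reads but too few to test, and 14 had 0 counts in all 6 libraries. The ligands that define the lymphocyte responses were near or at 0. Il6 had 0, 2 and 0 counts in the controls and 0, 1 and 1 in the knockouts; Il17a had 2 counts in Control replicate 2 alone, and Il13 had 1 count in Cyr61 KO replicate 2 alone. Il4 had 1, 4 and 1 counts in the controls and 0 in each knockout. Il10, the anti-inflammatory cytokine, had 4, 12 and 1 counts in the controls and 4, 1 and 4 in the knockouts, and Il11 had 4, 6 and 1 against 0, 1 and 2. Il2 had 1, 0, 1 and 2, 0, 1 counts, while Il5 and Il22 had 0 in all libraries. A count of 0 allows up to 3 reads by counting error alone, so transcripts of rare cells may be missed at this depth. Of the members not tested, Il1r2, a decoy receptor of IL-1, had the most reads in all, 6, 45 and 8 counts in the controls and 1, 1 and 6 in the knockouts, and Il2ra, the alpha chain of the IL-2 receptor, had 5, 25 and 2 against 1, 1 and 7.

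Per kilobase of exon, the control levels of the receptors were led by Il17rc at 15.6, Il13ra1 at 12.2 and Il11ra1 at 10.7 CPM per kb. Il10rb at 8.56, Il1rap at 8.03, Il6st at 7.95 and Il4ra at 6.55 CPM per kb followed. Neighbours among these 7 receptors had overlapping control libraries: the control CPM had SDs of 10.3 for Il17rc at a mean of 41.8, and of 12.4 for Il13ra1 at 45.3. Among ligands Il18 led at 9.99 CPM per kb, then Il1b at 5.69 and Il1a at 2.33 CPM per kb, and Il18bp, the soluble inhibitor of IL-18, was at 9.26 CPM per kb. Lowest of the tested members was Il17rd, a receptor-like chain, was at 0.107 CPM per kb in the controls.

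**Figure D1:**
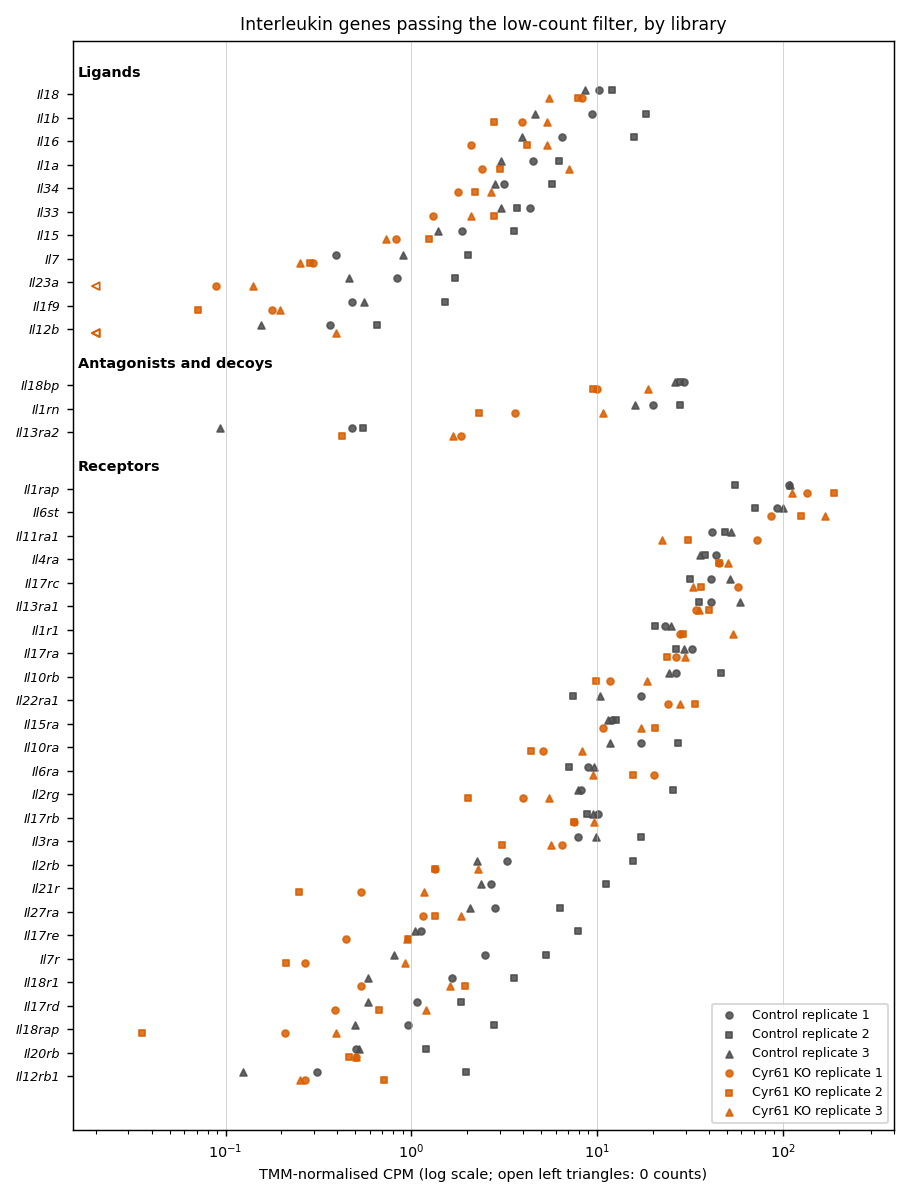
Level of each of the 40 interleukin genes that passed the low-count filter, as TMM-normalised CPM on a log axis, by role and ordered by mean level; each point is 1 library, grey for Control and orange for Cyr61 KO, and open triangles mark 0 counts. Control replicate 2 (grey squares) is the highest library for 24 of the 40 genes (60%), and for 34.9% of all genes tested. The receptors span from under 1 to over 100 CPM.

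The comparison of Cyr61 KO with Control asks which interleukin genes differ in NASH liver without Cyr61. One member passed the test: Il10ra, the ligand-binding chain of the IL-10 receptor, fell. Of the 40 tested members, 1 was called lower and 0 higher by edgeR's quasi-likelihood test (adjusted p below 0.05 over all 13563 genes), where 2.37% of all genes were called lower and 1.07% higher. The members' share, 2.50%, is near the background and is not a result about the family. An unadjusted p under 0.05 was reached by 21 members, where it was reached by 27.4% of all genes. DESeq2 called 14 of the 40 lower and 1 higher, against 9.87% and 6.24% of the same genes.

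The single call was lost when any of 4 libraries was left out. Without Control replicate 1 edgeR called 0 members lower (20 at an unadjusted p under 0.05). With Control replicate 2 left out it again called 0 (11 at an unadjusted p under 0.05), where 1.22% of all genes were lower. The same held for Cyr61 KO replicates 1 and 2, with 16 and 18 members at an unadjusted p under 0.05. Calls were few across all genes in those settings, at 7 of 13937 (0.0502%) and 24 of 13959 (0.172%). Without Control replicate 3 it called 9 lower (5.17% of all genes), and without Cyr61 KO replicate 3 it called 5 (4.35%). Without Control replicate 1, Il22ra1 alone was called, as higher (0.312% of all genes).

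The fold changes of the members were mostly negative. They were negative in 31 of 40, where 51.6% of all genes tested had a negative value, with a median log2 fold change (Cyr61 KO over Control) of -0.90 against -0.03 for all genes. The 2 groups did not overlap in 18 members that were lower and in 4 that were higher, where 17.9% and 17.3% of all genes had such a separation. These shares are descriptions, since the filter let in 3 members, Il7, Il23a and Il1f9, through the control libraries alone. With Il12b, Il21r, Il7r, Il12rb1 and Il18rap, 8 tested members reached its level in fewer knockout than control libraries. Il13ra2 went the other way, with 2 controls and 3 knockouts. Without Control replicate 2 the median of the members was -0.42, beside 0.02 for all genes, and 29 of 40 were negative. Level mattered to the median: the 21 members with a mean of at least 5 CPM had a median of -0.21, beside 0.09 for all genes at that level, and the 19 below it had -1.36, beside -0.65.

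**Figure D2:**
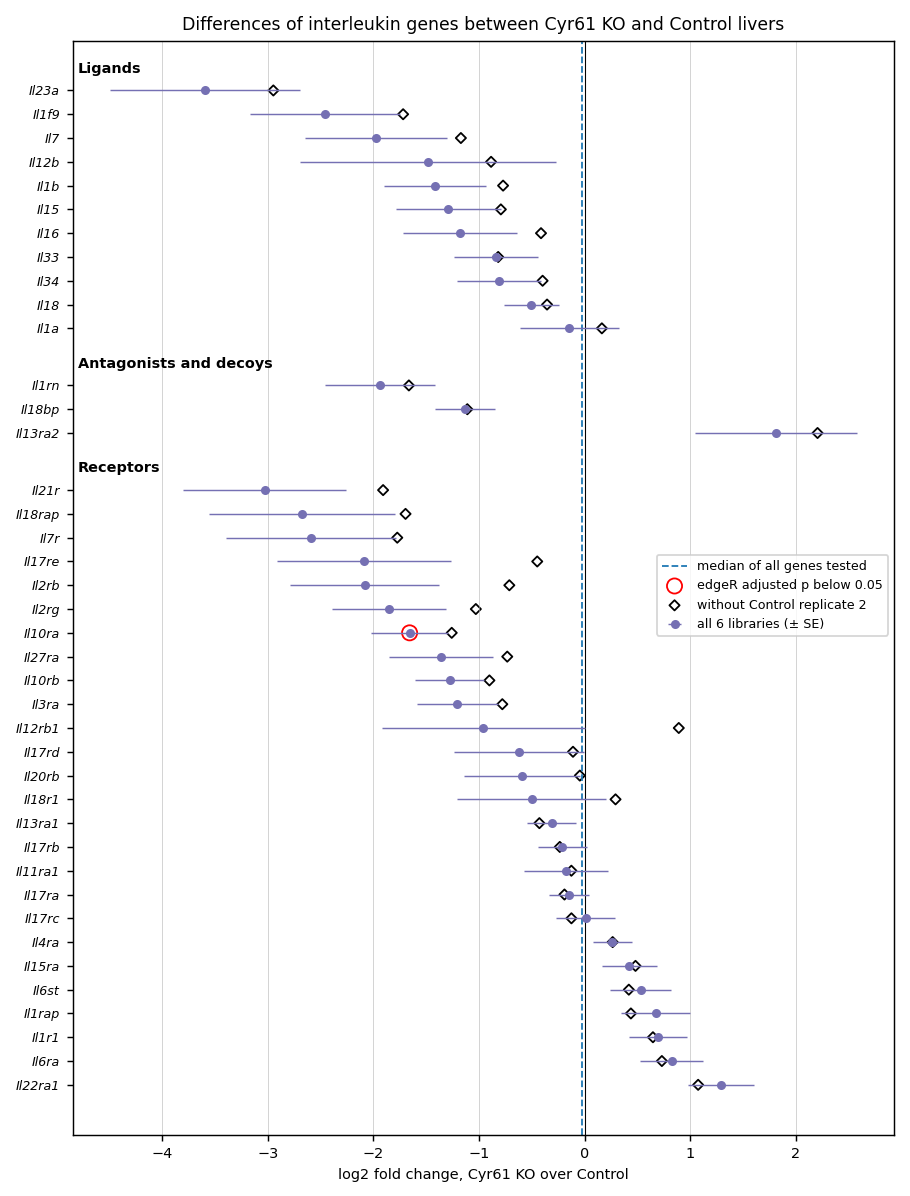
log2 fold change of Cyr61 KO over Control for the 40 tested interleukin genes, by role; filled points with bars are the edgeR values with SE from all 6 libraries, open diamonds the values without Control replicate 2, the red ring the 1 called gene, Il10ra, and the dashed line the median of all genes. Most values lie below 0, most diamonds lie nearer to 0 than the filled points, and 8 receptors and Il13ra2 lie above 0.

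Among ligands, 0 of 11 were called by edgeR (5 at an unadjusted p under 0.05 and 3 by DESeq2), and all 11 had negative values, at a median of -1.29. That held in 10 of 11 without Control replicate 2, where Il1a was at 0.16 and the median was -0.79. The filter's level was reached in 3 controls and 0 knockouts by Il7, Il23a and Il1f9, and in 2 controls and 1 knockout by Il12b. Such a filter favours negative values, so the sign count and median are descriptions. The counts by role here and below stand beside 2.37% of all genes called lower by edgeR and 9.87% by DESeq2. Il1b, the secreted IL-1 of activated macrophages, measured 9.44, 18.5 and 4.64 CPM across the controls, given here and below in replicate order, and 3.95, 2.80 and 5.41 CPM across the knockouts. Its groups overlapped, since Cyr61 KO replicate 3 lay above Control replicate 3. The log2 fold change of Il1b was -1.42 ± 0.49 (SE, edgeR adjusted p = 0.114), and -0.77 without Control replicate 2. Il1a, the cell-associated IL-1, was at 4.52, 6.26 and 3.03 CPM in the controls and at 2.41, 3.02 and 7.06 CPM in the knockouts, where the highest of all 6 values was Cyr61 KO replicate 3.

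Il18, a cytokine matured by caspase-1, was at 10.3, 12.0 and 8.60 CPM in the controls and at 8.32, 7.91 and 5.55 CPM in the knockouts. Groups of Il18 did not overlap, but the difference was small, -0.50 ± 0.26 (SE, edgeR adjusted p = 0.242). Il33, an alarmin released from damaged cells, was at 4.35, 3.72 and 3.03 CPM and at 1.31, 2.80 and 2.10 CPM, with a log2 fold change of -0.84. Il1f9, which encodes IL-36 gamma, was at 0.478, 1.51 and 0.557 CPM in the controls and at 0.178, 0.0709 and 0.196 CPM in the knockouts (log2 fold change -2.46, edgeR adjusted p = 0.0824), and like Il23a below it reached the filter's level in the controls alone. Every control was above every knockout for these last genes.

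Il23a, the p19 subunit of IL-23, had the most negative fold change of the ligands. It had 30, 50 and 15 counts in the controls and 3, 0 and 5 counts in the knockouts, which were 0.843, 1.72 and 0.464 CPM against 0.0891, 0 and 0.140 CPM. The log2 fold change was -3.60 ± 0.90 (SE, edgeR adjusted p = 0.0631; DESeq2 adjusted p = 0.00347). Il23a reached the filter's level in 3 controls and 0 knockouts, so it was tested through the group where it is high, and the separation is a description. Its partner subunit Il12b was at 0.365, 0.654 and 0.155 CPM and at 0, 0 and 0.392 CPM, with overlap. Il16, a chemoattractant for CD4 T cells, was at 6.52, 15.9 and 3.96 CPM and at 2.11, 4.19 and 5.35 CPM, and its log2 fold change moved from -1.18 to -0.41 without Control replicate 2. Il34, a ligand of the CSF1 receptor, was at 3.15, 5.75 and 2.82 CPM and at 1.78, 2.20 and 2.69 CPM (log2 fold change -0.81). Il7 and Il15, survival factors of lymphocytes, were at -1.97 and -1.29 on the log2 scale and did not pass (edgeR adjusted p = 0.113 and 0.143).

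Of the 3 tested antagonists and decoys, 0 were called by edgeR, 3 reached an unadjusted p under 0.05, and 2 were lower by DESeq2. Il1rn, the IL-1 receptor antagonist, was at 20.0, 28.0 and 16 CPM in the controls and at 3.62, 2.31 and 10.7 CPM in the knockouts. Cyr61 KO replicate 3 was the highest knockout and still below the lowest control. The means were 21.3 ± 6.14 and 5.56 ± 4.54 CPM (SD, n = 3). The log2 fold change was -1.93 ± 0.52 (SE, edgeR adjusted p = 0.0741; DESeq2 adjusted p = 0.0023). With 1 library left out, the log2 fold change of Il1rn ran from -1.55 without Cyr61 KO replicate 2 (edgeR adjusted p = 0.217) to -2.83 without Cyr61 KO replicate 3 (0.00943). It passed in the latter and, narrowly, without Control replicate 3 (0.04998), and not in the other 4.

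Il18bp, which binds and blocks IL-18, had controls close together: 29.6, 28.0 and 26.5 CPM, against 9.98, 9.47 and 18.8 CPM in the knockouts. All 3 knockouts lay below all controls, and Control replicate 2 did not stand out. The log2 fold change was -1.13 ± 0.28 (SE, edgeR adjusted p = 0.0632; DESeq2 adjusted p = 0.00849), and it was -1.11 without Control replicate 2. Il13ra2, the decoy receptor of IL-13, went the other way at a low level, with 0.478, 0.551 and 0.0928 CPM in the controls and 1.84, 0.426 and 1.68 CPM in the knockouts. Cyr61 KO replicate 2 lay within the controls, and the log2 fold change was 1.81 ± 0.76 (SE, edgeR adjusted p = 0.168).

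The ratio of an antagonist to its agonist within a library does not depend on library scaling. Counts of Il1rn were 2.12, 1.52 and 3.44 times those of Il1b in the controls and 0.917, 0.823 and 1.98 times in the knockouts. The mean log2 ratio was 1.15 ± 0.59 in the controls and 0.19 ± 0.69 in the knockouts (SD, n = 3), a difference of -0.96 within overlapping groups (exact permutation test, two-sided p = 0.2, Benjamini-Hochberg p = 0.4 over 3 ratios). Counts of Il18bp were 2.88, 2.33 and 3.08 times those of Il18 in the controls, and 1.20, 1.20 and 3.38 times in the knockouts. Here Cyr61 KO replicate 3 was the highest of all libraries, and the difference in mean log2 ratio was -0.69 (exact permutation test, two-sided p = 0.4, Benjamini-Hochberg p = 0.4). For Il13ra2 to Il13ra1, the signalling receptor of IL-13, the difference was 2.12 (exact permutation test, two-sided p = 0.3, Benjamini-Hochberg p = 0.4). With 3 libraries against 3 this test cannot give a p below 0.1, so no ratio could pass.

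**Figure D3:**
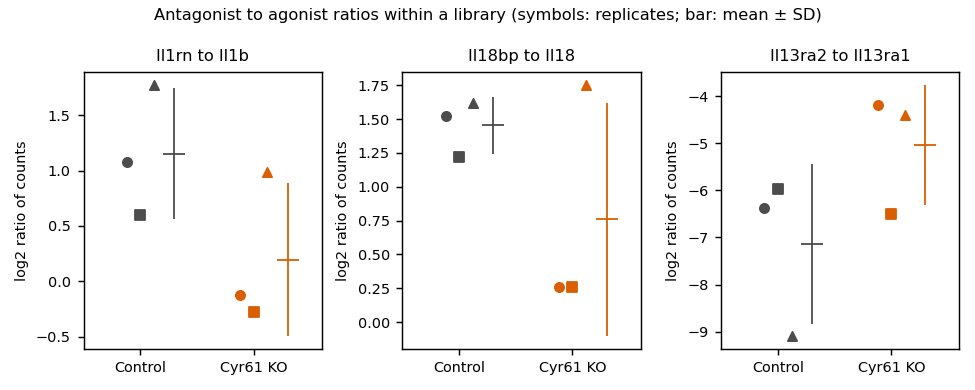
log2 ratio of antagonist to agonist counts in each library for 3 gene pairs, with the mean and SD of each group beside the points. The groups overlap in all 3 pairs, and Cyr61 KO replicate 3 (orange triangle) lies among the controls for Il1rn to Il1b and above them for Il18bp to Il18.

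Among receptor chains 1 of 26 was called lower and 0 higher, with 18 negative and 8 positive values and a median of -0.55. Chains of the IL-10 family had values in both directions. Il10ra, at chromosome 9 from 45253837 to 45269149, was at 17.3, 27.5 and 11.7 CPM in the controls and at 5.11, 4.43 and 8.33 CPM in the knockouts. No knockout overlapped a control. It fell from 18.8 ± 7.98 to 5.96 ± 2.08 CPM (SD, n = 3), to 31.6% of the control level, a log2 fold change of -1.66 ± 0.37 (SE, edgeR adjusted p = 0.0483; DESeq2 adjusted p = 0.000805). The call was lost without Control replicate 1 or 2 (edgeR adjusted p = 0.0739 and 0.0948, at -1.67 and -1.26) and without Cyr61 KO replicate 1 or 2 (0.121 and 0.201, at -1.54 and -1.47). It was also lost with library totals as the only scaling (0.0939) and with a filter of 1 CPM in 3 libraries (0.0510). Il10ra is known from macrophages and lymphocytes. The macrophage, dendritic cell, and B and plasma cell marker sums given above were also lower in every knockout than in every control. Their part in the fall of Il10ra was not tested.

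Il10rb, the chain that the receptors of IL-10, IL-22 and related cytokines share, was at 26.7, 46.7 and 24.4 CPM in the controls and at 11.8, 9.93 and 18.5 CPM in the knockouts. Control replicate 2 was the highest, and all knockouts were below all controls, at a log2 fold change of -1.28 ± 0.33 (SE, edgeR adjusted p = 0.0655). Its partner in the IL-22 receptor, Il22ra1, which in liver is known from hepatocytes, went the opposite way. Il22ra1, at chromosome 4 from 135728172 to 135752140, was at 17.2, 7.44 and 10.4 CPM in the controls and at 24.2, 33.9 and 28.0 CPM in the knockouts. Every knockout was above every control, and the log2 fold change was 1.29 ± 0.31 (SE, edgeR adjusted p = 0.0575; DESeq2 adjusted p = 0.00342). It was lowest in Control replicate 2, the library with the lowest hepatocyte marker sum, and without that library the log2 fold change was 1.07 (edgeR adjusted p = 0.0892). The part of the hepatocyte marker level in this difference was not tested. Il20rb, of the IL-20 receptor, was at 0.506, 1.20 and 0.526 CPM in the controls and at 0.461 to 0.505 CPM in the knockouts, and its log2 fold change moved from -0.59 to -0.05 without Control replicate 2.

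**Figure D4:**
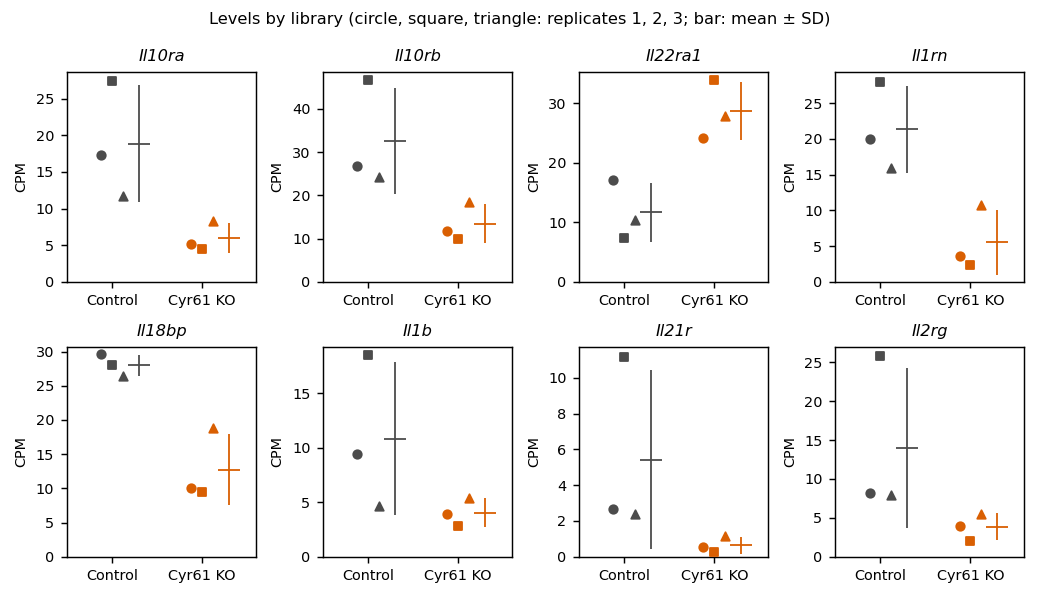
CPM of 8 interleukin genes in each library on linear axes from 0, with the group mean and SD beside the points. Il10ra, Il10rb, Il1rn, Il18bp, Il21r and Il2rg are lower in all knockouts than in all controls and Il22ra1 higher, while the groups of Il1b overlap; Control replicate 2 (grey square) is the highest library for 6 of the 8 genes and the lowest for Il22ra1.

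In several receptor chains of the common gamma family Control replicate 2 was far above the other libraries. Il2rg, the shared gamma chain, was at 8.17, 25.8 and 7.95 CPM in the controls and at 4.01, 2.02 and 5.55 CPM in the knockouts. Il21r, of the IL-21 receptor, was at 2.70, 11.2 and 2.38 CPM and at 0.535, 0.248 and 1.18 CPM. For both, all knockouts were below all controls, at log2 fold changes of -1.85 ± 0.54 and -3.03 ± 0.77 (SE, edgeR adjusted p = 0.0831 and 0.0642), and of -1.03 and -1.91 without Control replicate 2. Il2rb, which receives IL-2 and IL-15, was at 3.29, 15.7 and 2.26 CPM and at 1.34, 1.35 and 2.30 CPM, and its log2 fold change moved from -2.08 to -0.71 without that control. Il7r, the IL-7 receptor of lymphocytes, was at 2.50, 5.34 and 0.804 CPM and at 0.267, 0.213 and 0.925 CPM, with overlap. Of the T, NK and innate lymphoid markers, 11 of 12 tested also had negative values, and edgeR called 1 lower and 1 higher. The marker sum was 47.4, 110.3 and 39.0 CPM in the controls and 65.1, 67.6 and 62.7 CPM in the knockouts. Every knockout sum thus lay above those of Control replicates 1 and 3. A sum is weighted to its highest markers, and the only positive marker, which edgeR called higher, was at 1.09. The median of the 12 was -2.78, so the sum runs against most of its markers and does not show the level of these cells. The sums of B and plasma cell and of dendritic cell markers given above were lower in every knockout than in every control. The part of these markers in the negative values of the receptor chains was not tested. Il4ra and Il15ra, found on many cell types, did not share the direction: Il4ra was at 43.8, 38.2 and 36.0 CPM in the controls and at 45.4, 45.6 and 50.6 CPM in the knockouts, a log2 fold change of 0.26 ± 0.18 (SE, edgeR adjusted p = 0.377).

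Receptors of IL-1 and IL-6 that hepatocytes use lay above 0. Il1rap, the accessory chain shared by the IL-1 and IL-33 receptors, was at 108, 55.4 and 110.2 CPM in the controls and at 135, 189 and 113 CPM in the knockouts (log2 fold change 0.67 ± 0.33, SE, edgeR adjusted p = 0.213). Il1r1, the signalling IL-1 receptor, was at 23.2, 20.5 and 25.0 CPM and at 28.2, 29.2 and 53.9 CPM (log2 fold change 0.70 ± 0.28, SE, edgeR adjusted p = 0.152). Both genes were higher in every knockout than in every control, for Il1rap by a small margin. Il6ra, the IL-6 binding chain, was at 8.99, 7.09 and 9.62 CPM and at 20.3, 15.7 and 9.56 CPM, so Cyr61 KO replicate 3 lay within the controls (log2 fold change 0.82 ± 0.30, SE, edgeR adjusted p = 0.128). Il6st, which encodes the shared chain gp130, was at 93.1, 70.6 and 100.9 CPM and at 86.9, 126 and 169.6 CPM (log2 fold change 0.53 ± 0.29, SE, edgeR adjusted p = 0.260). None of these 4 passed with edgeR, and Control replicate 2, where the hepatocyte marker sum was lowest, was their lowest library. The part of that sum was not tested. Without Control replicate 2 the log2 fold changes of Il1rap, Il1r1, Il6ra and Il6st were 0.44, 0.65, 0.73 and 0.42. Without Cyr61 KO replicate 3 they were 0.84, 0.34, 1.08 and 0.28.

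Il1r1 lies in a run of IL-1 family receptor genes on chromosome 1, from Il1r2 at 40074079 to the end of Il18rap at 40551705, and the genes of this run did not move alike. Il18rap, the accessory chain of the IL-18 receptor, was at 0.955, 2.79 and 0.495 CPM in the controls and at 0.208, 0.0355 and 0.392 CPM in the knockouts, a log2 fold change of -2.68 ± 0.88 (SE, edgeR adjusted p = 0.105). Its neighbour Il18r1, the ligand-binding chain, was at 1.66, 3.58 and 0.588 CPM and at 0.535, 1.95 and 1.63 CPM, with overlap; its log2 fold change was -0.50, and 0.29 without Control replicate 2. Il1rl1, the IL-33 receptor, had 5, 9 and 1 counts in the controls and 7, 0 and 4 in the knockouts and was not tested.

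The remaining receptors did not pass the test. Il17ra and Il17rc, the receptor pair for IL-17A, were at log2 fold changes of -0.15 and 0.01 (edgeR adjusted p = 0.635 and 0.986), with Il17ra at 32.6, 26.7 and 29.5 CPM in the controls and 26.8, 23.7 and 29.6 CPM in the knockouts. Il17re, a receptor of IL-17C in epithelia, was at 1.12, 7.92 and 1.05 CPM and at 0.446, 0.958 and 0.953 CPM, and its log2 fold change moved from -2.09 to -0.45 without Control replicate 2. The 7 cholangiocyte markers, of which 0 were called by edgeR (6 at an unadjusted p under 0.05 and 5 lower by DESeq2), summed to 1373 CPM in that library and to 236 and 274 CPM in the other controls and to 80.4 to 158 CPM in the knockouts. Spp1 is on this list and on that of monocyte-derived macrophages, so these sums share a gene. The part of the cholangiocyte markers in Il17re was not tested. Il3ra, of the IL-3 receptor, was at 7.95, 17.3 and 9.84 CPM and at 6.48, 3.09 and 5.64 CPM without overlap (log2 fold change -1.20, edgeR adjusted p = 0.0985; DESeq2 adjusted p = 0.0330). Il13ra1 was at -0.31 and Il11ra1 at -0.18; the spread of Il11ra1 was wide in the knockouts, at 73.1, 31.0 and 22.3 CPM against 41.6, 49.1 and 52.4 CPM. Il11ra2, a close copy of Il11ra1, had 0 counts in all libraries, and reads placed at several positions were not counted.

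Genes through which interleukins act were taken from 7 lists. The lists were chosen with earlier results of these data known, so the shares called in them are descriptions. Of the 118 distinct tested genes on them, 12 were called lower and 0 higher, and 11 lower without Control replicate 2. Over all genes tested, edgeR called 2.37% lower and 1.07% higher, and 1.22% lower without Control replicate 2. DESeq2 called 9.87% of the genes that edgeR tested lower and 6.24% higher. Signalling kinases, adaptors and STATs had 0 of 22 called by edgeR (6 at an unadjusted p under 0.05, and 2 higher and 1 lower by DESeq2), at a median of 0.19, and Jak1 and Stat3 were at 0.17 and 0.19. Feedback inhibitors had 0 of 17 called by edgeR (5 at an unadjusted p under 0.05, and 1 higher and 1 lower by DESeq2), with Ptpn11, a phosphatase, at 0.58 and Tollip, an inhibitor of IL-1 receptor signalling, at 0.51. Partner chains and related cytokines had 0 of 16 called by edgeR (10 at an unadjusted p under 0.05, and 1 higher and 6 lower by DESeq2). Among them Lifr, the LIF receptor that pairs with gp130, was at 101, 72.1 and 132 CPM in the controls and at 189, 206 and 189.8 CPM in the knockouts (log2 fold change 0.94 ± 0.27, SE, edgeR adjusted p = 0.0811). Csf1r, the receptor that Il34 also binds, was at -0.68 (edgeR adjusted p = 0.233).

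Of 17 genes of the inflammasome and of interleukin-processing proteases, 3 were called lower, 17.6%, or 2 without Control replicate 2. The shares of all genes in these settings were 2.37% and 1.22%. Casp4, the caspase of the non-canonical inflammasome, fell from 13.7 ± 3.26 to 1.72 ± 1.13 CPM (SD, n = 3; log2 fold change -2.98, edgeR adjusted p = 0.0237). Panx1, a channel that releases ATP, fell by 2.12 and Prtn3, a neutrophil protease, by 4.73 on the log2 scale. Prtn3 reached 11.7 CPM in Control replicate 3, with 0.927 and 1.55 CPM in the other controls. Its log2 fold change was -2.77 without that library, and it was not tested with a filter of 1 CPM in 3 libraries. A fall of 4.73 from these control levels leaves the knockout mean below the low-count filter's level of 0.287 CPM. Prtn3 was thus tested through the group where it is high, and its call is a description. The neutrophil markers summed to 16.5 to 75.1 CPM in the controls and 3.33 to 7.54 CPM in the knockouts; all 6 tested had negative values, 2 were called lower by edgeR and 6 by DESeq2, and their part in the values of Prtn3 and Lcn2 was not tested. Casp1, which cleaves the precursors of Il1b and Il18, was not called (log2 fold change -1.72, edgeR adjusted p = 0.0532); it was picked after its value was seen.

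Most of the calls on these lists were of interleukin targets. With the lists chosen as said above, the shares beside all genes do not test whether targets hold more calls. Of 24 tested hepatocyte targets of IL-6 and STAT3, 7 were called lower, 29.2%, and 9 without Control replicate 2. Of all genes, 2.37% and 1.22% were called lower in these settings. The 24 had 17 negative and 7 positive values, at a median of -0.76, and DESeq2 called 9 lower and 1 higher. The metallothionein genes Mt1 and Mt2 fell by 3.03 and 3.13 on the log2 scale (edgeR adjusted p = 0.0107 and 0.0146), with Mt1 at 55.0, 106.8 and 141 CPM in the controls and at 11.7, 13.2 and 12.0 CPM in the knockouts. Saa3, a serum amyloid gene, fell by 2.54. The others called were Saa1, Saa2, Orm2 and Lcn2, of which Saa1 and Saa2 are close copies; Saa2, at -4.41, was at -2.92 without Control replicate 3, where it was at 1030 CPM. Of 14 tested chemokines and mediators that IL-17 and IL-1 induce, 3 were called lower, 21.4%, or 1 without Control replicate 2, Lcn2. Lcn2, an iron-binding acute phase protein that both target lists hold, fell from 291 ± 178 to 16.6 ± 15.1 CPM (SD, n = 3; log2 fold change -4.13, edgeR adjusted p = 0.0272). Vcam1, an adhesion molecule for leukocytes, fell by 1.70, and Ccl20, a chemokine for IL-17 producing cells, had 13, 50 and 10 counts in the controls and 0, 0 and 1 in the knockouts (edgeR adjusted p = 0.0428). Ccl20 passed the low-count filter through the controls alone, so its call is a description, and it was not tested with a filter of 1 CPM or with unstranded counts. Macrophage targets of IL-4 and IL-13 had 0 of 11 called by edgeR (5 at an unadjusted p under 0.05 and 4 lower by DESeq2), and Arg1 and Tgm2 were at 0.13 and -0.70.

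Without Cyr61 KO replicate 1 none of the 7 lists had a called gene by edgeR, and without Cyr61 KO replicate 2 Mt1 alone was called, in settings where 7 and 24 of all genes were called. With library totals as the only scaling, Mt1 and Mt2 were the 2 called genes, and the median of all genes moved from -0.03 to -0.30.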

How the data were processed

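Raw read counts per gene were used as deposited by the authors, 1 table per library. The submitters' processing notes list Trimmomatic 0.38, STAR 2.6.1a and the builds mm10 and hg38, without settings or annotation. Reads outside genes (4.27% to 25.7% of reads), in several genes or at several positions stayed out. Under R 4.3.3, edgeR 4.0.16 was run on the reverse-strand counts (quasi-likelihood F test, filterByExpr with a minimum count of 10 and total of 15, TMM, group term only), adjusted by Benjamini-Hochberg over 13563 genes. Each SE was derived by dividing the log2 fold change, as a size, by the root of its F statistic. Gene positions and exon lengths were read from GENCODE M21 (GRCm38). The alternatives were DESeq2 1.42.0, other scalings and filters, unstranded counts, a replicate block, leaving out each library, and limma 3.58.1 (voom with quality weights, added after seeing the data). Statistics were tested in 3 simulations with 200 of 13563 genes changed. There edgeR recovered 0% of 1.5-fold, 12.0% of 2-fold and 66.7% of 4-fold changes, with 4.33 false calls on average. DESeq2 recovered 29.3% of 2-fold and 82.7% of 4-fold changes, with 30.7 false calls. A member that did not pass may thus still differ by 2-fold, and DESeq2 calls held more false ones. Count ratios were compared by exact permutation with 0.5 added to each count.

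The members and lists were chosen with earlier results of these data known. Named were called members, the tested members of highest mean CPM in each role (5 ligands, 8 receptors and all antagonists), and 8 more by p with separate groups and an absolute log2 fold change of at least 1; other members printed were chosen after their values were seen. From each pathway list up to 3 called genes by p, or the 2 of highest CPM, were named, with the further called genes of the lists listed. All library pairs differed by more than sampling noise (chi-square per degree of freedom of at least 54.9).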

Additional observations from a re-analysis of the deposited data

Results flagged for a closer look

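Reads on the strand opposite to Il12rb2, a chain of the IL-12 receptor whose own counts were too low to test, numbered 31, 16 and 20 in the knockouts and 12, 6 and 1 in the controls, with no overlap, and averaged 0.683 CPM in the knockouts. That strand was not used in the comparisons, and exons of Serbp1 overlap Il12rb2 there.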

How the results depend on the processing

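The count of members called lower was 1. It was 14 with DESeq2, 7 with no low-count filter, 2 with unstranded counts, 3 with the replicate number as a block, 13 with voom and quality weights (an alternative chosen after seeing the data), and 0 with library totals or with 1 CPM in 3 libraries; it ran from 0 to 9 when 1 library was left out. The share of all genes called in either direction moved too: 3.44% as reported, 12.7% with DESeq2, 5.28% with no filter, 3.41% unstranded, 4.67% with the block, 33.1% with voom, 0.369% with library totals and 3.60% with 1 CPM in 3 libraries. Members called higher numbered 0, but 1 with DESeq2, with no filter and with the replicate block, 4 with voom, and 0 to 1 with 1 library left out. The 3 ratios kept their direction in every setting run. The lists' 12 lower genes became 38 with DESeq2 (and 5 higher), 2 with library totals, 21 with no filter, 43 with voom (and 8 higher), and 0 to 25 with 1 library left out.

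On the log2 scale, Il4ra was at -0.00985 with library totals. Il17rc was at -0.25 with library totals, -0.0280 with 1 CPM in 3 libraries, -0.00305 with the replicate block, -0.24 with voom, and between -0.27 and 0.22 with 1 library left out (-0.12 without Control replicate 2). With 1 library left out, Il1a ran from -0.75 to 0.16 and Il11ra1 from -0.83 to 0.14. The other 21 named members kept their sign; of the other tested members, Il18r1 and Il12rb1 turned positive without Control replicate 2 (0.29 and 0.89) and with voom (0.37 and 0.97). The cause of these shifts was not tested. Same-numbered libraries did not deviate together (correlations of -0.06, -0.24 and -0.45), so the numbers are not taken as pairs; the block added Il18bp, Il1rn and Il22ra1 to the calls. Control replicate 2 had the fewest gene counts, and members below 1 CPM are the least precise.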
